A study of Mus musculus with 6 samples.

Results

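The 8 genes described here encode the enzymes that make serine from a glycolytic intermediate and pass its carbon into the folate cycle: Phgdh, Psat1, Psph, Shmt1, Shmt2, Mthfd1, Mthfd1l and Mthfd2. They are the genes named in a fixed list, found by matching the RefSeq accessions of the count table to gene symbols, and the list was chosen on counts of these same 6 libraries, so every difference given for a member is a description without a test. A row was matched for 7 of the 8 genes, among 13177 accessions in all. Mthfd1l was not matched and was not analysed here. The libraries were made from RNA of CD4+ T cells (helper T lymphocytes) of mice, isolated with magnetic beads. One group of 3 was collected 8 h after transfection with synthetic miR-155, an oligonucleotide copy of a microRNA that lymphocytes make on activation, and the other group of 3 is labelled as control at 0 h. The treatment label of all 6 libraries names the oligonucleotide, no library was collected at 8 h without it, and the description of the 8 h libraries says CD5+ where the other labels say CD4+. Time and exposure therefore cannot be told apart. The labels do not say whether replicates were separate animals or cultures, so a p-value here covers the spread among these libraries only, and that spread may be technical.

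In serine synthesis, PHGDH oxidises 3-phosphoglycerate, PSAT1 transfers an amino group to the product and PSPH removes the phosphate. SHMT1 in the cytosol and SHMT2 in mitochondria then split serine into glycine and a one-carbon unit bound to tetrahydrofolate. MTHFD2 and MTHFD1L in mitochondria and MTHFD1 in the cytosol carry that unit between its oxidation states and feed purine and thymidylate synthesis, and activated T cells are known to raise this pathway as they prepare to divide.

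The sequences below are those the results refer to. The oligonucleotide's own sequence is not given in the sources used here. The mature strands of the endogenous mouse miRNA, from RefSeq on GRCm38.p6, lie on chromosome 16 at chr16:84714143-84714165 and chr16:84714182-84714202 on the plus strand and are shown 5′ to 3′ with the seed, bases 2 to 8, in capitals:
mmu-miR-155-5p: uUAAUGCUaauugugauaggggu
mmu-miR-155-3p: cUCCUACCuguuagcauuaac

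The letters AGCATTA, which pair with the seed of miR-155-5p, did not occur in the longest annotated 3′ UTR of any of the 8 genes, and neither did the 6 letters GCATTA. These UTRs, from GENCODE release M21, ran from 133 bases in Phgdh to 1368 bases in Psat1. No match says only that these letters are not in these windows.

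RefSeq promoter windows on GRCm38.p6, 250 bases before to 50 after a start, were matched for 8 of the 8 genes, with 9 windows in all since Psat1 has 2. The windows of the 3 genes with enough counts to be tested are printed 5′ to 3′ on the gene's strand, since the profiles compared below are theirs, with every CCAAT box in capitals (CCAAT, or ATTGG on the other strand). Psph is on the minus strand at chr5:129787204-129787503, the first window of Psat1 on the minus strand at chr19:15925010-15925309, and Mthfd2 on the minus strand at chr6:83317555-83317854:
Psph: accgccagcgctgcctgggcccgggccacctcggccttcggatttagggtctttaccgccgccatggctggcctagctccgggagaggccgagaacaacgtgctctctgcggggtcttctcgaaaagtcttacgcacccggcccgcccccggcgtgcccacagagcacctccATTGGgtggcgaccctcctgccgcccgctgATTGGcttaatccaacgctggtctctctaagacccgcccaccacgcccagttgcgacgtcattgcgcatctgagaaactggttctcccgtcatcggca
Psat1: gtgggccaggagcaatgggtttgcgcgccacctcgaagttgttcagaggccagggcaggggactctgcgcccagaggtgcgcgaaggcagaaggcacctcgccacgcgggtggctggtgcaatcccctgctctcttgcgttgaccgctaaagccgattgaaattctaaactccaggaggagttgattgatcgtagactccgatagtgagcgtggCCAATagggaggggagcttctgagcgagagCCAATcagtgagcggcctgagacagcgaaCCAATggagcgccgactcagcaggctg
Mthfd2: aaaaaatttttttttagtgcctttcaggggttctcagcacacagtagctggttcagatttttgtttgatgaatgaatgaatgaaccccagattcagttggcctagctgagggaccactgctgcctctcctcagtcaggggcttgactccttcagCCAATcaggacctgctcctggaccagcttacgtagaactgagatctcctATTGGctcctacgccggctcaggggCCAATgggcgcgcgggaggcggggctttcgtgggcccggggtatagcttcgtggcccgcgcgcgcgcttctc

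Each of these windows held the CCAAT box, a common promoter element, with 2 matches for Psph, 3 for Psat1 and 3 for Mthfd2. It occurred in 6 of the 9 member windows, one each of Psph, Psat1, Phgdh, Shmt1, Mthfd1 and Mthfd2, against 37.4% of the 32851 mouse windows. TGATGNAAT occurred in 0 of the 9 and in 0.965% of all windows. It was written here for the amino acid response element bound by ATF4, and no other form of that element was searched. CACGTG, the E-box read by MYC, occurred in 0 of the 9 and in 7.15%, and TGACGTCA, the cyclic AMP response element, in 0 of the 9 and in 1.79%. Both strands were searched, no motif contains another, and the motifs were chosen after the sequences had been seen. GC content ran from 42.7% in Shmt2 to 66.7% in the second window of Psat1, with a median of 52.7% over all windows.

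Psph, the phosphatase of the last step, was far more abundant in the 8 h libraries than in the controls, while the groups of Psat1 and Mthfd2 overlapped. Its deposited counts were 3661, 17901 and 842 in 8 h replicates 1 to 3 and 22, 28 and 36 in controls 1 to 3. As CPM, counts scaled to the size of each library after adjustment by the trimmed mean of M values (TMM), these were 429.8, 1348 and 122 CPM at 8 h and 3.93, 5.57 and 3.28 CPM in the controls. Every 8 h library lay above every control, and the lowest 8 h value was 21.9 times the highest control value. The control libraries stayed within 1.70-fold of each other, whereas the 8 h libraries spanned 11.1-fold.

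Psph averaged 633 ± 638 CPM at 8 h and 4.26 ± 1.18 CPM in the controls (SD, n = 3 each). Its log2 fold change was 7.21 ± 2.63 (SE) in the edgeR fit, which ranked 21 from the highest of the 8308 accessions with enough counts to be tested. Without 8 h replicate 2, the library with the highest value, it was 6.02, and without 8 h replicate 3, the lowest, it was 7.75. In the controls 70.9% of tested accessions had a higher mean level than Psph, and at 8 h 2.79% did. The accession is NM_133900, on chromosome 5 (129765558 to 129787443, minus strand, GRCm38). Its annotated exons share 452 bases with those of Cct6a on the other strand, and whether reads were counted by strand is not given in the sources used here. Cct6a, a chaperonin subunit, had 47, 18 and 54 counts at 8 h and 26, 94 and 164 in the controls. These lay below Psph in every 8 h library and above it in every control. Whether reads of one gene were counted for the other was not tested.

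**Figure D1:**
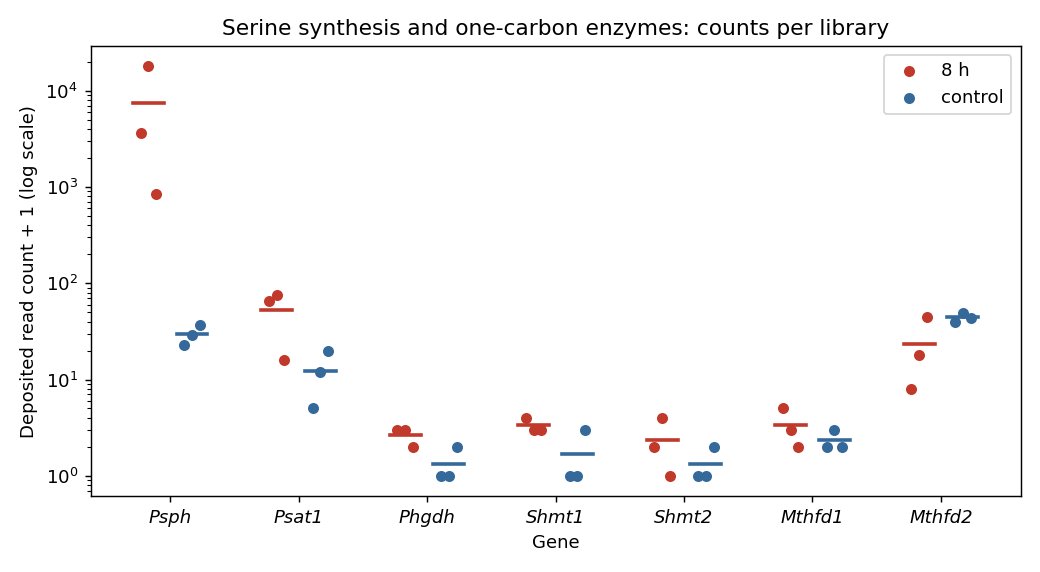
Deposited read count plus 1, on a log axis, of the 7 members with a row in each of the 3 libraries at 8 h (red, left) and the 3 control libraries (blue, right), with a horizontal line at the mean of each group. Psph stands at 842 to 17901 counts at 8 h and at 22 to 36 counts in the controls, and Phgdh, Shmt1, Shmt2 and Mthfd1 stay at 4 counts or fewer in every library.

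Psat1, the aminotransferase of the step before, had 65, 74 and 15 counts at 8 h and 4, 11 and 19 counts in the controls. These were 7.63, 5.57 and 2.17 CPM at 8 h and 0.715, 2.19 and 1.73 CPM in the controls. Replicates 1 and 2 at 8 h lay above all controls, while replicate 3 lay just under control 2, so the groups overlapped. Psat1 averaged 5.13 ± 2.76 CPM at 8 h and 1.55 ± 0.754 CPM in the controls (SD, n = 3 each). Its log2 fold change was 1.72 ± 1.46 (SE), between 1.34 without 8 h replicate 1 and 2.11 without 8 h replicate 3. The row holds NM_001205339 (chromosome 19, 15905123 to 15925059, minus strand).

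Phgdh, which encodes the first enzyme of the pathway, was close to absent from the table, with 2, 2 and 1 counts at 8 h and 0, 0 and 1 in the controls. A library with no count of a gene may still hold up to 3 counts' worth of it, which is 0.536 CPM in control 1 and 0.596 CPM in control 2. All 6 values lay under 3 counts, too few to compare the groups, and no fold is given. The row holds NM_016966 (chromosome 3, 98313171 to 98339969, minus strand). In 8 h replicate 2 the table thus held 17901 counts for the last enzyme of serine synthesis and 2 for the first.

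Neither hydroxymethyltransferase had enough counts in its row to compare. Shmt1, the cytosolic enzyme, had 3, 2 and 2 counts at 8 h and 0, 0 and 2 in the controls. Shmt2, its mitochondrial counterpart, had 1, 3 and 0 counts at 8 h and 0, 0 and 1 in the controls. Both rows (NM_009171, chromosome 11, 60788897 to 60811265; NM_001252316, chromosome 10, 127517123 to 127522444; both minus strand) stayed at 3 counts or fewer in every library.

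Among the folate enzymes, Mthfd2, the mitochondrial dehydrogenase and cyclohydrolase, was the only one with enough counts to be tested, and its mean was lower at 8 h than in the controls. It had 7, 17 and 44 counts at 8 h and 39, 48 and 43 in the controls, which were 0.822, 1.28 and 6.38 CPM at 8 h and 6.97, 9.54 and 3.92 CPM in the controls. Replicates 1 and 2 at 8 h lay below every control, whereas replicate 3 lay above control 3 and the groups overlapped. Mthfd2 averaged 2.83 ± 3.08 CPM at 8 h and 6.81 ± 2.81 CPM in the controls (SD, n = 3 each). Its log2 fold change was -1.27 ± 1.56 (SE). Without 8 h replicate 3 the log2 fold change was -2.63, and without 8 h replicate 1 it was -0.82. The row holds NM_008638, and the gene spans chromosome 6 from 83305704 to 83326011 on the minus strand. The promoter window printed above lies wholly inside that span. Mthfd1, the cytosolic enzyme (NM_138745, chromosome 12, 76254406 to 76319820, plus strand), had 4, 2 and 1 counts at 8 h and 1, 2 and 1 in the controls.

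Of the 7 members with a row, 3 passed the filter on low counts. Psph was above its cutoff of 1.33 CPM in 3 of 3 8 h and 3 of 3 control libraries, and Psat1 in 3 of 3 8 h and 2 of 3 control libraries. Mthfd2 was above it in 1 of 3 8 h and 3 of 3 control libraries, so it passed largely through the group in which it was higher. Psph was the 1 tested member whose groups did not overlap, where every 8 h library exceeded every control for 5.72% of all tested accessions. Nothing is read from that count, because the members were chosen with these values in view. Over the whole table edgeR's quasi-likelihood test called 0% of the 8308 accessions at a Benjamini-Hochberg adjusted p under 0.05, and the smallest adjusted p in that fit was 0.316. The unadjusted p was under 0.05 for 709 accessions, and limma-voom, which called 0 as well, had 400. DESeq2's Wald test had 1371 and called 399, with no adjusted p given for 1720 of the 8308 accessions.

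**Figure D2:**
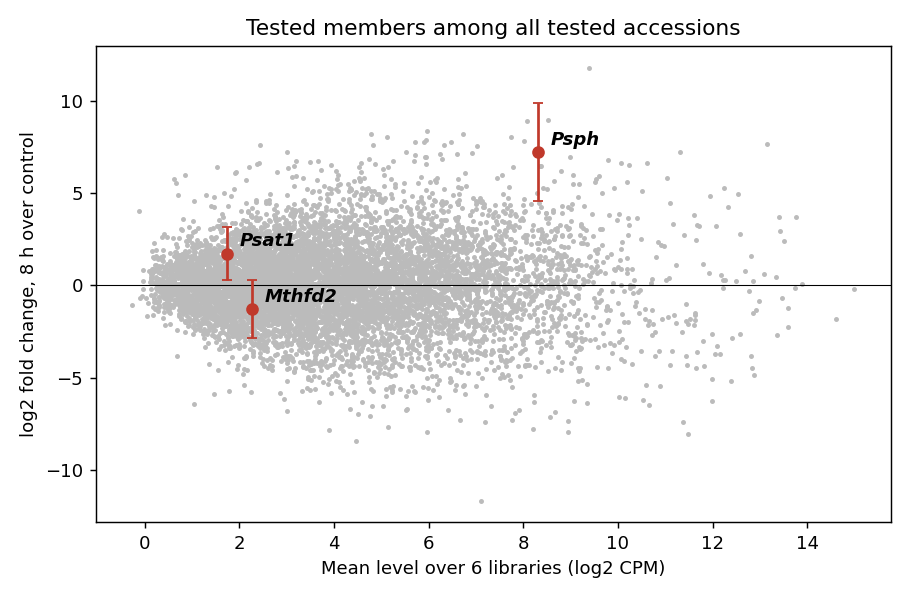
Log2 fold change of 8 h over control against the mean level over the 6 libraries (log2 CPM) for the 8308 tested accessions (grey), with the 3 tested members in red and bars of 1 SE. Psph lies at 7.21 near the upper edge, while Psat1 at 1.72 and Mthfd2 at -1.27 lie within the body of points at low levels.

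Levels of different genes were compared per kilobase of the matched GENCODE transcript, as CPM per kb. In the 8 h libraries Psph was highest, at 248, 777.8 and 70.4 CPM per kb. Psat1 followed at 3.33, 2.43 and 0.949 CPM per kb and Mthfd2 at 0.394, 0.614 and 3.06 CPM per kb, and these overlapped. In the controls Mthfd2 had 3.34, 4.58 and 1.88 CPM per kb and Psph 2.27, 3.21 and 1.90 CPM per kb, and these overlapped too. Psat1 lay below both in every control, at 0.312, 0.955 and 0.757 CPM per kb. The 4 untested members were at 0.145 CPM per kb or less in every library. Most of the pathway's reads at 8 h were thus Psph reads: the gene made up 97.8%, 99.4% and 93.0% of the summed CPM of the 7 members at 8 h and 33.3%, 31.5% and 35.0% in the controls. That sum was 642 ± 637 CPM at 8 h and 13.0 ± 4.27 CPM in the controls (SD, n = 3 each). Without Psph it was 8.76 ± 1.10 CPM at 8 h and 8.70 ± 3.09 CPM in the controls, the higher Psat1 and lower Mthfd2 values at 8 h lying in the same sum.

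Profiles of the 3 tested members over the 6 libraries were then compared. Likeness was measured as the root mean square difference of log2 CPM after each gene's own mean was subtracted, over 6 libraries and 8307 other accessions. For Psat1 the most alike was Grk6, a kinase of G protein-coupled receptors, at 0.29 against a median of 1.96 over all accessions. Grk6 had 38, 55 and 8 counts at 8 h and 4, 10 and 13 in the controls. For Mthfd2 it was Slc10a2, a bile acid transporter of the ileum, at 0.28 against a median of 2.10, with 1, 2 and 13 counts at 8 h and 9, 10 and 6 in the controls. Among the members themselves the difference was 2.64 between Psph and Psat1, 2.11 between Psat1 and Mthfd2 and 4.42 between Psph and Mthfd2. By likeness to Psph, whose median difference from all accessions was 3.77, Psat1 ranked 595 of the 8307 and Mthfd2 ranked 6492. By likeness to Psat1, Psph ranked 6740 and Mthfd2 ranked 4863, and by likeness to Mthfd2, Psat1 ranked 4210 and Psph ranked 8274. The measure grows with the size of a gene's changes as well as with their pattern. The single difference of 2.64 therefore gave both rank 595 and rank 6740, and the ranks do not compare patterns alone. With 6 libraries and 8307 accessions a close profile is easily found, and these likenesses carry no test.

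**Figure D3:**
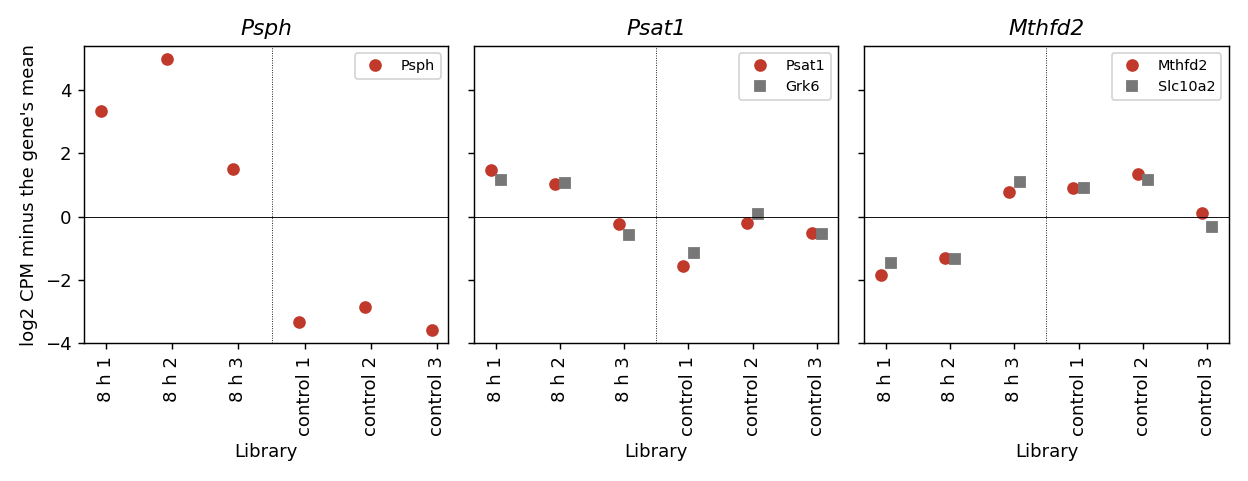
Log2 CPM minus the gene's own mean in each of the 6 libraries for Psph, Psat1 and Mthfd2 (red circles) and, beside Psat1 and Mthfd2, for the accession most like each, Grk6 and Slc10a2 (grey squares), with a dotted line between the 8 h libraries and the controls. Psph is above its mean in all 3 libraries at 8 h and below it in all 3 controls, and Mthfd2 is low in 8 h replicates 1 and 2 only.

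Around the members, 6 lists of related genes held 97 genes, of which 83 had a row and 58 were tested, and 0 of the 58 passed edgeR's test in either direction (adjusted p from 0.523 to 0.999). Of the 58, 28 had positive and 30 negative log2 fold changes, with a median of -0.11, where the median of all tested accessions was 0.06 and 51.3% were positive. Every 8 h library lay above every control for 4 of the 58 and below every control for 2, where all tested accessions gave 5.72% above and 5.08% below, so both counts are near the background.

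Genes of serine and glycine uptake, exchange and use had positive log2 fold changes in 9 and negative ones in 6 of 15 tested members. Gldc, the glycine decarboxylase of the mitochondrial cleavage system, had 2, 13 and 2 counts at 8 h and 104, 20 and 18 in the controls, with a log2 fold change of -3.94 ± 1.69 (SE). Its groups did not overlap on the CPM scale. At 8 h it was at 0.235, 0.979 and 0.290 CPM, under the filter's cutoff of 1.33 CPM. It passed the filter only through the controls, where it was higher, so these values are a description. Sdsl, a serine dehydratase-like enzyme at the other end of the list, had 5, 106 and 2586 counts at 8 h and 1, 9 and 184 in the controls, and its log2 fold change of 4.34 ± 2.02 (SE) came with overlapping groups.

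In the folate list 2 of 8 tested members had positive and 6 negative log2 fold changes, with a median of -1.03. Slc46a1, the proton-coupled folate transporter, had 2, 15 and 13 counts at 8 h and 102, 12 and 22 in the controls, a log2 fold change of -2.79 ± 1.61 (SE), and its groups did not overlap on the CPM scale. Its values of 0.235 and 1.13 CPM in 8 h replicates 1 and 2 lay under the filter's cutoff of 1.33 CPM. Of the close neighbours of the members, Tyms, the thymidylate synthase, had 2 to 9 counts at 8 h and 2 to 4 in the controls. Slc19a1, the reduced folate carrier, had 6 to 8 counts at 8 h and 2 to 11 in the controls. Mthfd2l and Slc25a32 were not matched and were not analysed here.

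The methionine cycle split into 3 positive and 3 negative of 6 tested members, and purine synthesis into 4 positive and 3 negative of 7. Ahcy, which hydrolyses S-adenosylhomocysteine, had 249, 165 and 1064 counts at 8 h and 7384, 8303 and 453 in the controls. Its log2 fold change was -3.94 ± 2.34 (SE) and its groups overlapped. Mat1a, a methionine adenosyltransferase, was at 0, 0 and 907 counts at 8 h and 18, 47 and 43 in the controls, so all of its 8 h counts came from 1 library. Mtap, of the methionine salvage route, had 2, 6 and 2 counts at 8 h and 1, 0 and 1 in the controls and was not tested.

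Prps1, which makes the ribose phosphate donor of purines, had 1134, 85597 and 67 counts at 8 h and 1682, 135 and 2252 in the controls. Nearly all of its 8 h counts were in replicate 2, and its log2 fold change was 3.63 ± 2.42 (SE). Adss, an adenylosuccinate synthase, had 1474, 494 and 1432 counts at 8 h and 504, 19484 and 2265 in the controls, with a log2 fold change of -3.32 ± 2.33 (SE). Impdh2, the rate-limiting enzyme of guanine nucleotide synthesis, had 33, 427 and 24 counts at 8 h and 3, 10 and 8 in the controls, the groups not overlapping, with a log2 fold change of 3.60 ± 1.80 (SE). Its values of 0.536 and 0.730 CPM in controls 1 and 3 lay under the filter's cutoff of 1.33 CPM. Impdh2 was named after its values were seen.

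The ATF4 and amino acid response list covers the factor ATF4, a known activator of Psat1, Phgdh and Mthfd2, and other genes of that response. Of 15 tested members 7 had positive and 8 negative log2 fold changes, with a median of -0.47. Atf4 itself had 6, 15 and 57 counts at 8 h and 9, 70 and 14 in the controls, with a log2 fold change of -0.73 ± 1.52 (SE). Asns, asparagine synthetase, had 62, 8 and 49 counts at 8 h and 44, 7 and 5 in the controls, with a log2 fold change of 0.63 ± 1.50 (SE). For both genes the groups overlapped.

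Groups did not overlap for 3 of the 15 tested genes of this list, all higher at 8 h, where 5.72% of all tested accessions were higher and 5.08% lower in that way. Nothing particular to the list is read from that count. Eif2s1, the alpha subunit of the initiation factor eIF2, had 80325, 18945 and 10073 counts at 8 h and 1030, 49 and 282 in the controls, with a log2 fold change of 5.81 ± 2.78 (SE). Chac1, a glutathione-degrading enzyme, had 117, 253 and 135 counts at 8 h and 9, 21 and 18 in the controls, and its CPM in the 8 h libraries lay within 1.42-fold of each other. Its log2 fold change was 2.82 ± 1.78 (SE). Nars, the asparaginyl-tRNA synthetase, had 70, 65 and 11 counts at 8 h and 3, 2 and 8 in the controls, with a log2 fold change of 3.09 ± 1.45 (SE). In the controls Nars was at 0.536, 0.398 and 0.730 CPM, under the filter's cutoff of 1.33 CPM. It passed the filter only through the 8 h group, where it was higher, so these values are a description. Chac1 and Nars were named after their values were seen. At the other end, Nupr1, a stress-induced chromatin protein, had 57, 15 and 7 counts at 8 h and 10, 67 and 162 in the controls.

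Among regulators of one-carbon genes 3 of 7 tested members had positive and 4 negative log2 fold changes. Myc, which promotes growth and nucleotide synthesis in activated T cells, had 2446, 358 and 144 counts at 8 h and 1175, 44 and 14667 in the controls, and its log2 fold change of -2.22 ± 2.09 (SE) came with overlapping groups. Srebf1, a factor of lipid synthesis genes, had 32, 2266 and 39 counts at 8 h and 25, 61 and 283 in the controls. Nfe2l2, which encodes the oxidative stress factor NRF2, had 14, 219 and 10 counts at 8 h and 802, 66 and 26 in the controls. In both genes 1 library held most of the counts of a group.

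**Figure D4:**
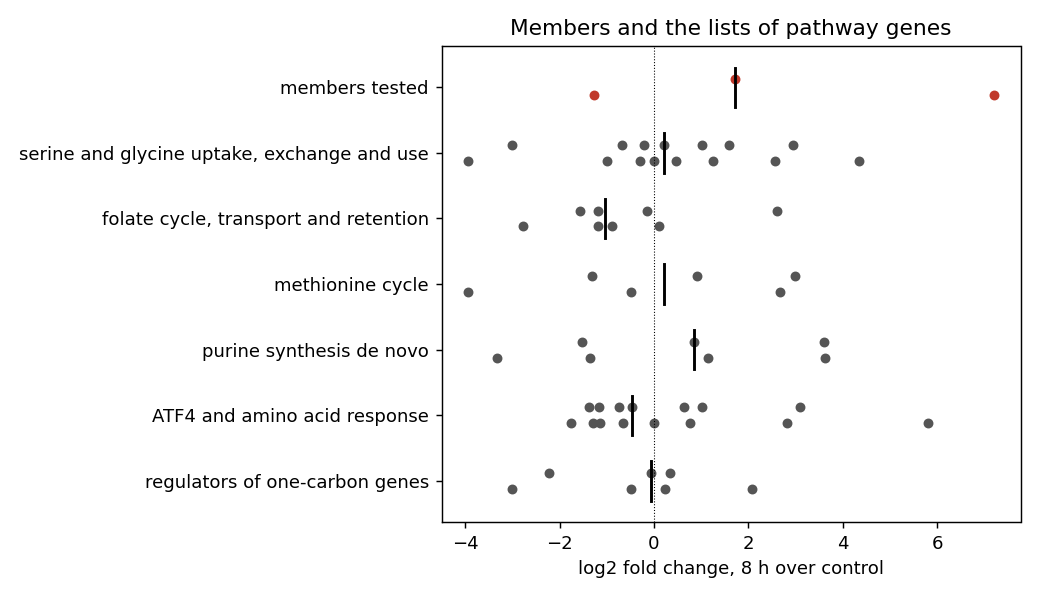
Log2 fold change of 8 h over control for the 3 tested members (red) and for the tested genes of 6 related lists (grey), 1 point per gene, with a vertical bar at the median of each row. Medians of the lists lie between -1.03 and 0.86, and Psph at 7.21 lies beyond every listed gene, the nearest being Eif2s1 at 5.81.

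Libraries held 4564010 to 13675127 counts, and 8 h replicate 2, with the most Psph, was also the deepest. Actb had 1 to 5 and Gapdh 1 to 11 counts in every library, although both are abundant in nearly all cells, so it is uncertain whether a row holds all reads of its gene, and every value above carries that limit. The spread between replicates was wide throughout: the median ratio of highest to lowest library was 10.4 among the 7774 tested accessions counted in all 8 h libraries and 9.83 among the 7544 counted in all controls. Of 8 T cell markers 7 had a row, Cd4 having 5 to 10 counts in any library, and their summed level was 3945 to 12340 CPM at 8 h and 3341 to 19090 CPM in the controls. Proliferation genes (7 of 7 with a row) summed to 3069 to 3922 CPM at 8 h and 243 to 2266 CPM in the controls, and cytotoxic and natural killer genes (7 of 7) to 231 to 423 CPM at 8 h and 1309 to 4831 CPM in the controls. Both sums separated the groups, the proliferation sum in the direction of Psph and the cytotoxic and natural killer sum in the opposite one. Single tested accessions did so too, 5.72% higher and 5.08% lower at 8 h. A sum of CPM can rest on 1 abundant gene, and the values of the single genes are not reported here. No change of a cell type is read from these sums, and their part in the Psph values was not tested. Sums of B cell (6 of 6 with a row), myeloid (8 of 8) and CD8 T cell markers (2 of 2) overlapped between the groups. Erythroid and platelet markers (7 of 8) summed to 8.69 to 31.4 CPM at 8 h and 31.3 to 207 CPM in the controls, a bare overlap. No marker with a row was at 0 in all libraries. In RNA of a whole preparation, fewer cells of a type and less RNA per cell cannot be told apart.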

How the data were processed

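The values are raw read counts, which the authors deposited as 1 table of 6 libraries by RefSeq accession. Per the labels' protocols, total RNA was made into TruSeq libraries and sequenced as single reads of 50 bases. The submitters' processing notes list Bowtie, R 3.4.2 and GRCm38 without saying what each was used for. How reads were counted, including those matching several places, and whether rows were filtered is not given in the sources used here. Columns were matched by title, and 0 columns lay outside the series. Symbols came from a RefSeq table of GRCm38.p6 (12824 accessions) and GENCODE M21 (50), with 303 left unnamed. Coordinates given with a member are the span of its gene in RefSeq, not of the transcript its row names.

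Counts were fitted with edgeR 4.0.16 in R 4.3.3: filterByExpr, TMM scaling, a robust quasi-likelihood F test over 8308 accessions with the group as the only term, two-sided, adjusted by Benjamini-Hochberg at 0.05. Each SE was taken as |log2 fold change| divided by √F. Log2 CPM used a prior count of 2. Alternatives were RLE and upper-quartile scaling, no filter, a filter at 5 CPM on average, DESeq2 1.42.0, limma-voom (limma 3.58.1), a replicate block and leaving out each library. The code was also run on simulated counts, but the outcome is not reported here and no result above rests on it.

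Members and lists were chosen with earlier results of these data known. Genes named were the members, the highest and lowest log2 fold change of each list, the accession most like each tested member and 10 pathway neighbours. Exceptions are stated, and some of these genes are not reported here. Limits from a count of 0 cover counting error only, since reads carried no molecular identifiers.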

Additional observations from a re-analysis of the deposited data

How the results depend on the processing

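The number of called accessions was 0 under RLE and upper-quartile scaling, no filter, a filter at 5 CPM on average, limma-voom and the replicate block, 0 to 0 without each replicate, and 399 with DESeq2. Of the listed genes 0 were called under the same settings and 0 to 0 without each replicate. DESeq2 called 2 of the 58 tested, Gldc and Eif2s1, where it called 399 of the 8308 accessions fitted. Nothing particular to the lists is read from that count. The number of tested members with a positive log2 fold change was 2, where 51.3% of all tested accessions were positive. It was 1 of 1 with the filter at 5 CPM, where Psph alone was tested, and 2 to 2 without each replicate. With no filter it was 6 of 7, but the 4 members so added had 4 counts or fewer in every library. Their signs are therefore not read, and the share of all accessions in that setting is not reported here. The log2 fold change of Psph lay between 6.02 and 7.75 without each replicate, that of Psat1 between 1.34 and 2.11 and that of Mthfd2 between -2.63 and -0.82. With the replicate block these were 6.64, 1.63 and -1.86, and the block changed no call. Deviations of same-numbered libraries correlated at -0.0107, 0.0151 and -0.0039, so the numbers were not taken to pair the samples. Raw library totals in place of TMM gave a mean summed CPM of 633.2 at 8 h and 12.7 in the controls. The rows of Phgdh, Shmt1, Shmt2 and Mthfd1 held too few counts to compare under any setting, and why they did was not tested. The cause of these shifts was not tested.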
